A study of Mus musculus with 2 samples.

Results

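Among splenic CD8 T cells of old recipient mice, 410 cells were taken that carried the granzyme gene Gzmk together with Trbv16, Trbv13-2 or Trbv5 as their leading T cell receptor beta V segment. They were 410 of 1186 Gzmk cells and of 5619 filtered cells in the CD45.2+ library, which had 6174 barcodes of the 14762 in the series. Wild-type CD45.2 C57BL/6J recipients aged 24 months had received total CD8 T cells of wild-type CD45.1 C57BL/6J donors aged 3 months, and 1 month later CD45.2+ (old recipient) and CD45.1+ (young donor) CD3e+CD8a+ cells were sorted from spleen. The 2 populations went into 1 droplet 5' library each, in which unique molecular identifiers (UMIs) were counted, and the number of mice behind each is not given in the sources used here. A member had at least 500 detected genes, at most 10% of its UMIs in mitochondrial genes, at least 2 Gzmk UMIs, and more UMIs of 1 of the 3 segments than of any other Trbv. This gave 176 Trbv16, 132 Trbv13-2 and 102 Trbv5 cells, beside 763 Gzmk cells with another segment, 8 with tied segments and 5 with no Trbv UMI. The Gzmk limit and the segments were chosen from these same counts, so the abundance of the members is given as a description.

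A T cell builds its beta chain by joining 1 V segment to D and J segments and its alpha chain by joining a V to a J segment, and its descendants inherit both joins. Cells of 1 clone therefore share a Trbv and a Trav segment, although cells that share them need not be of 1 clone. Gzmk encodes granzyme K, a serine protease of cytotoxic granules, and Gzmk-expressing CD8 T cells with inhibitory receptors such as PD-1 are known to accumulate in old mice. Receptor libraries of the same cells were not analysed here, so a clone could not be told from a group of cells with like V segments.

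With 1 library per group there was no replicate and no test. Library and group cannot be told apart, cells of 1 library are not replicates, and intervals cover counting error only, at 95%. Levels are UMIs summed over the cells of a set per 1000000 UMIs of the same cells (CPM). The 3 sets held 981545 (Trbv16), 747781 (Trbv13-2) and 456059 (Trbv5) UMIs, with medians of 4784, 4670 and 3905.5 UMIs per cell, and the other-segment Gzmk cells held 4493623 with a median of 4824. Ribosomal protein genes took a median of 30.9% and 30.5% of UMIs in Trbv16 and Trbv13-2 cells, 29.2% in other-segment cells and 23.7% in Trbv5 cells. The filtered libraries shared 65 barcodes, of which 6 were members. At least 2 UMIs of a second Trbv were found in 55 Trbv16 cells (31.3%), 23 Trbv13-2 cells (17.4%), 8 Trbv5 cells (7.84%) and 30.7% of other-segment cells, and doublets were not removed.

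All members carried UMIs of the CD8 T cell markers Cd3e, Cd3d, Cd8a, Cd8b1 or Trac, and Cd4, Foxp3 and Il2ra were at 0 in all 3 sets. The CD4 and regulatory T cell list summed to 16.3 (Trbv16), 21.4 (Trbv13-2) and 57.01 CPM (Trbv5), against 24.7 in other-segment cells, and Izumo1r gave 50.4 of the 57.01 CPM in Trbv5 cells. The NK cell list summed to 274, 279 and 274 CPM in the 3 sets, against 249 in other-segment and 17.9 in naive cells. Nearly all of it was Eomes, which memory CD8 T cells also express (271, 278 and 270 CPM), while Ncr1 and Tyrobp were at 0. Of the B and plasma cell markers, Mzb1 was at 0. The B and plasma list summed to 136 CPM in Trbv16, 78.9 in Trbv13-2 and 70.2 in Trbv5 cells, against 88.6 CPM in other-segment cells. Expansion of a segment among Gzmk cells was least clear for Trbv13-2, since 353 cells with this segment had no Gzmk UMI, against 224 with Trbv16 and 197 with Trbv5.

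The ends of the V segments show how alike the segments are at that end. Where the receptor reads lay within the segments was not examined. Capitals mark the codon of the conserved cysteine that opens the CDR3 loop and the bases after it, and each line is the last 60 bases of the segment on the plus strand, from GENCODE M21 transcripts (GRCm38). The first lines are the segments of the members with Trbv13-3 as the near relative of Trbv13-2, at chr6:41152171-41152230, chr6:41121773-41121832, chr6:41130526-41130585 and chr6:41062744-41062803. The last are the alpha segments most often found with Trbv13-2 and Trbv5, at chr14:53538679-53538738 and chr14:53616855-53616914.
Trbv16: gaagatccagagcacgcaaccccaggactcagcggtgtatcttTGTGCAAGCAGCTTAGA
Trbv13-2: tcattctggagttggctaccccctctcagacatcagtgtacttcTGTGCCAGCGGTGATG
Trbv13-3: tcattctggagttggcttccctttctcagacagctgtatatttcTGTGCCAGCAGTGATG
Trbv5: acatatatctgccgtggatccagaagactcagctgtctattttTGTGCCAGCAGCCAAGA
Trav12-1: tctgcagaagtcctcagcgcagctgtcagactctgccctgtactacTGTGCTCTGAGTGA
Trav12-2: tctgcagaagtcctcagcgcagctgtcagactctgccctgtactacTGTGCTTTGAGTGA

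Trbv13-2 and Trbv13-3 matched at 228 of the last 250 bases (91.2%), compared without gaps. Trbv16 and Trbv5 were compared only with each other and with the Trbv13 segments, so near relatives of theirs were not looked for. Trav12-1 and Trav12-2 matched at 59 of the last 60 bases but at 193 of the last 250 (77.2%). Trav12-2 matched its copies Trav12d-2 and Trav12n-2 at 241 of 250 bases (96.4%), and Trav12-1 matched Trav12d-1 and Trav12n-1 at 235 of 250 (94.0%). Reads could thus be split between copies, which leaves the Trav names uncertain. How certain the names of Trbv16 and Trbv5 are was not examined.

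Gzmk cells took a larger share of each of the 3 segments in the recipient than in the donor. The segments were chosen from the recipient counts, so this is a description and not a test. In the recipient, 176 of 426 Trbv16 cells (41.3%, exact binomial interval 36.6 to 46.2), 132 of 499 Trbv13-2 cells (26.5%, 22.6 to 30.6) and 102 of 315 Trbv5 cells (32.4%, 27.2 to 37.9) had at least 2 Gzmk UMIs. In the donor the shares were 8 of 459 (1.74%), 10 of 589 (1.70%) and 3 of 215 (1.40%). Cells of all other segments as 1 set had nearly the same share in both, 763 of 4217 (18.1%) and 1244 of 6461 (19.3%). Single segments within that set differed. Trbv1 had 112 recipient cells with at least 2 Gzmk UMIs and 205 with none, against 13 and 308 in the donor. For Trbv13-3 these were 74 and 307 against 5 and 403. The donor had the larger share for Trbv17 (86 and 116 against 252 and 166) and Trbv12-1 (40 and 265 against 229 and 563). A larger share in the recipient was thus not particular to the 3 segments. Among recipient Gzmk cells with a call, Trbv16 ranked 1, Trbv13-2 ranked 2 (11.3%) and Trbv5 ranked 4 (8.70%), after Trbv1 with 112 cells. Only 41 members lay at the limit of exactly 2 Gzmk UMIs, and 56 cells of the 3 segments lay just outside it with 1 UMI. Ccl5, a chemokine gene of memory CD8 T cells, had 24382 CPM in the Trbv16 cells with 1 Gzmk UMI and 26088 in those with exactly 2. For Trbv13-2 the values were 12503 and 26368, and for Trbv5 25580 and 38043. The cells with 1 UMI thus lay well above the 2479 to 3076 CPM of cells of these segments with no Gzmk UMI, and the gap between cells with 1 and exactly 2 was widest for Trbv13-2.

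**Figure D1:**
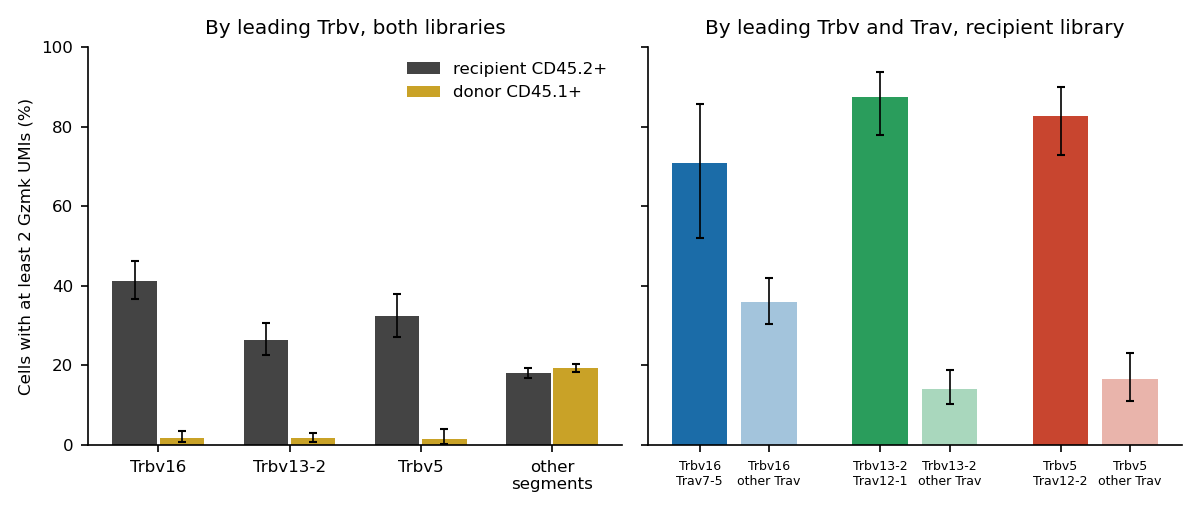
Share of cells with at least 2 Gzmk UMIs (percent, bars with exact binomial 95% intervals) by leading Trbv in the recipient and donor libraries (left) and by leading Trbv and Trav in the recipient library (right). The 3 segments stand at 26.5% to 41.3% in the recipient and at 1.40% to 1.74% in the donor. Cells with Trbv13-2 and Trav12-1 or Trbv5 and Trav12-2 stand above 80%. Segments and pairs were chosen from these recipient counts, so both panels are a description.

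The 3 segments differed in how many alpha segments went with them. Of 98 Trbv5 cells with a leading Trav, 71 (72.4%, 62.5 to 81.0) had Trav12-2. Of 109 Trbv13-2 cells, 69 (63.3%) had Trav12-1 and 18 had Trav12-2. The 124 Trbv16 cells were spread over 27 Trav segments, the most common being Trav7-5 with 22 cells (17.7%), Trav5-1 with 20 and Trav13-2 with 17. Trbv5 with Trav12-2 and Trbv13-2 with Trav12-1 were the most common pairs among all 920 Gzmk cells with both calls, with 71 and 69 cells. Thus Trbv5 and Trbv13-2 cells were mostly of 1 pair each, and Trbv16 cells were of many.

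**Figure D2:**
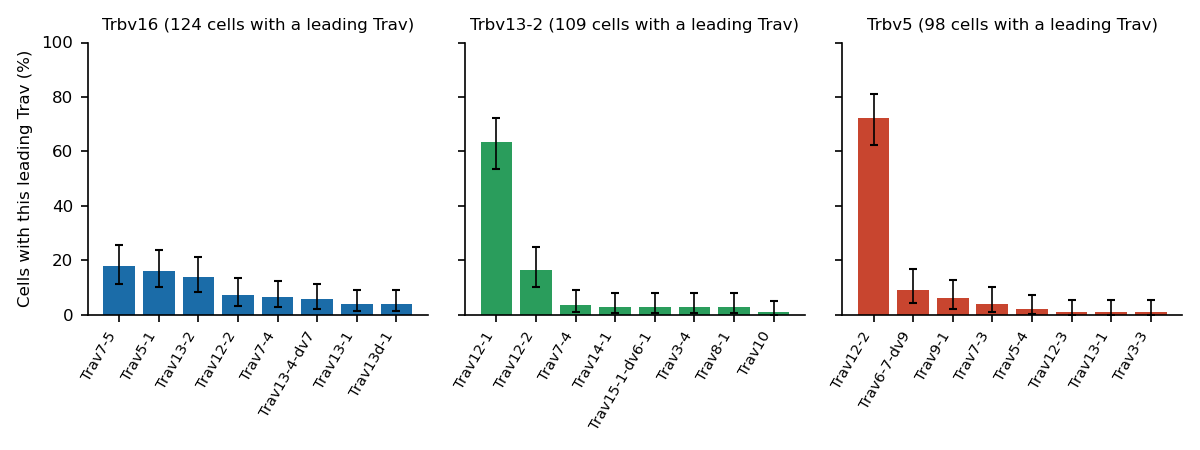
Share of cells (percent, with exact binomial 95% intervals) by leading Trav for the 8 most common Trav segments in the Trbv16, Trbv13-2 and Trbv5 Gzmk cells. 1 Trav takes 72.4% of Trbv5 and 63.3% of Trbv13-2 cells, and none takes more than 17.7% of Trbv16 cells.

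Within each segment the Gzmk share was higher for the most common pair, which was chosen for its number of Gzmk cells. Of 86 recipient cells with Trbv5 and Trav12-2, 71 (82.6%) were Gzmk cells, against 27 of 164 (16.5%) with Trbv5 and another Trav. For Trbv13-2 the numbers were 69 of 79 (87.3%) with Trav12-1 and 40 of 283 (14.1%) with another Trav, and for Trbv16 they were 22 of 31 (71.0%) with Trav7-5 and 102 of 283 (36.04%) with another. Since the pair taken out was the one with most Gzmk cells, the shares of the remaining cells were not compared with other segments. In the donor, none of 11, 8 and 6 cells with the same pairs was a Gzmk cell. The exact intervals for these 0 shares reach 28.5%, 36.9% and 45.9%, so a share like that of the recipient pairs lies above them but a lower one was not detectable.

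Each segment was then set against other-segment Gzmk cells. Of 7088 genes with at least 50 UMIs over both sets, 184 (2.6%) were at least 2-fold higher in Trbv5 cells and 339 (4.78%) at least 2-fold lower. With TMM scaling, a trimmed-mean correction for composition, the split was 117 higher and 431 lower, and many of these genes lay near the UMI minimum, with 69 higher and 130 lower at 100 UMIs or more. The corresponding counts were 18 higher (0.247%) and 181 lower (2.48%) of 7295 genes for Trbv16, and 36 (0.501%) and 222 (3.09%) of 7183 for Trbv13-2. Trbv5 had the fewest UMIs, and counting error alone puts more genes past 2-fold in a smaller set, so these counts do not rank the segments. In simulated data, 352 of 6839 genes with no true difference passed the 2-fold limit for Trbv5. For Trbv13-2 these were 160 of 6985 genes, and for Trbv16 75 of 7069. Part of the counts above, and much of those for Trbv5 and Trbv13-2, can thus come from counting error alone.

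Of 13 chemokine and cytokine genes with at least 20 UMIs, 4 were at least 2-fold higher in Trbv5 cells and 2 lower, with a median log2 ratio of 0.60, beside 4.73% higher and 6.74% lower among all 8945 genes. The higher ones were Ccl3, Ccl4, Ifng and Csf1 (54.8 against 1.78 CPM), and the lower ones Tnfsf8 (4.39 against 13.8) and Lta (2.19 against 6.23). Ccl3 (chromosome 11, 83647844 to 83649355), which encodes the inflammatory chemokine MIP-1 alpha, had 1015 CPM (925 to 1112) in Trbv5 cells against 131 CPM in other-segment cells. Among the 10 other segments with at least 40 Gzmk cells, its level ran from 31.5 CPM (Trbv29) to 349 (Trbv12-2) with a median of 64.0. Trbv16 had 56.0 and Trbv13-2 82.9 CPM, inside that range. Trbv5 cells with at least 1 Ccl3 UMI were 51 of 102, but 28.9% of the UMIs lay in 1 cell with 134, and without that cell the level was 730 CPM. Ccl4, the neighbouring gene for MIP-1 beta, stood at 2870 CPM against 382, and Ifng, which encodes interferon gamma, at 213 against 55.6, both above the highest of the 10 other segments (795 and 80.9 CPM). Xcl1, the gene of lymphotactin, had 182 CPM in Trbv5 and 183 in Trbv13-2 cells against 111, and in Trbv5 cells 71.1% of its UMIs lay in 1 cell.

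Penk (chromosome 4, 4133531 to 4138819), the gene of the opioid precursor proenkephalin, had 131 UMIs in Trbv5 cells, or 287 CPM (240 to 341), against 41.6 CPM in other-segment cells. It stood at 4.08 CPM in Trbv16 and 12.04 in Trbv13-2 cells, and the 10 other segments ran from 0 (Trbv17) to 96.4 CPM (Trbv1). In Trbv5 cells the highest cell had 28 UMIs, and 33 of 102 cells (32.4%) had at least 1. In other-segment cells 46 of 763 (6.03%) had a Penk UMI, and 1 cell held 54 of the 187. After thinning each cell to 1500 UMIs, which left out 1 Trbv5 cell, 21.8% of Trbv5 cells had a Penk UMI (14.2 to 31.1), against 2.64% of other-segment cells, of which 4 were left out, and 0.0676% of 1479 naive cells, taken as background. The naive cells had a median of 7806 UMIs before thinning. Trbv16 cells had 0 of 176 at this depth and Trbv13-2 cells 3.03%, so of the 3 segments the Trbv5 share was the highest.

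Of 12 inhibitory receptor genes with at least 20 UMIs, 8 were at least 2-fold higher in Trbv5 cells and 1 lower, with a median log2 ratio of 1.40 against 0.06 over 8945 genes, of which 4.73% were at least 2-fold higher and 6.74% lower. Pdcd1, which encodes PD-1, had 329 CPM (278 to 386) against 71.4, Lag3 559 against 122 and Tigit 450 against 194 CPM. For each of these the Trbv5 level was above the highest of the 10 other segments, at 93.5 CPM (Trbv1) for Pdcd1, 216 (Trbv12-1) for Lag3 and 287 (Trbv12-1) for Tigit. Pdcd1 UMIs were found in 62 of 102 Trbv5 cells (60.8%) and in 222 of 763 other-segment cells (29.1%). Of the others, Havcr2, the gene of TIM-3, had 72.4 against 7.34 CPM, and Cd160 had 28.5 against 41.4. Without the 71 cells that carried Trav12-2, the list median was -0.012, with Lag3 at 0.09, Tigit at -0.012 and Pdcd1 at 0.87 on the log2 scale.

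Of 15 exhaustion-linked regulators, 8 were at least 2-fold higher and none lower in Trbv5 cells, with a median log2 ratio of 1.05. Helios is encoded by Ikzf2, at 134 CPM against 48.1, but Trbv13-3 cells had 177 CPM, and Maf had 107 against 32.7. Tox, which encodes a chromatin regulator of exhausted T cells, had 292 CPM against 182, and Eomes, a T-box factor gene, had 270 against 243. Without the Trav12-2 cells the direction turned for Ikzf2 (log2 ratio from 1.48 to -2.95), Tox (0.68 to -0.87) and Eomes (0.15 to -0.34), and the list median was 0.20. The Ikzf2 value rests on few counts, with 1 UMI in the 27 Trbv5 cells with another Trav. Of 15 naive and stem-like genes, 8 were at least 2-fold lower and none higher, with a median of -1.06. Tcf7, the gene of the stem-like factor TCF-1, had 83.3 CPM in Trbv5 cells against 181, below all 10 other segments (134 to 232 CPM). Il7r, which encodes the IL-7 receptor chain, had 129 CPM against 285, and the lowest of the 10 other segments had 139. Also lower were Emb (61.4 against 150), Slamf6 (48.2 against 101), Lef1 (65.8 against 125), Itgb7 (138 against 256) and S1pr1 (83.3 against 152 CPM). Without the Trav12-2 cells the naive and stem-like median was -0.49, and the log2 ratio was -0.41 for Tcf7, -0.03 for Il7r, -0.0073 for Lef1 and -0.045 for Itgb7. Of 20 immediate early genes, 6 were at least 2-fold higher in Trbv5 cells, with Fos at 54.8 against 15.4 CPM and Egr1 at 59.2 against 24.3.

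**Figure D3:**
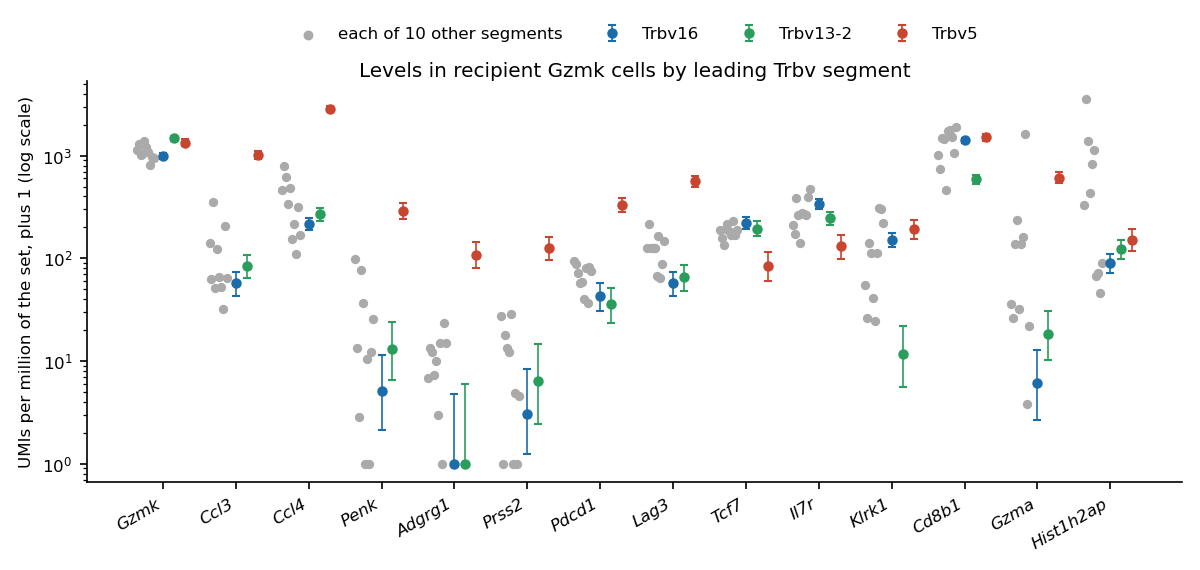
Levels of 14 genes (CPM plus 1, log scale) in recipient Gzmk cells. Coloured points are Trbv16, Trbv13-2 and Trbv5 with exact Poisson 95% intervals, and grey points are the 10 other segments with at least 40 Gzmk cells. Trbv5 cells stand above all other segments for Ccl3, Ccl4, Penk, Adgrg1, Prss2, Pdcd1 and Lag3, and Trbv13-2 cells stand lowest for Klrk1.

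Among Trbv5 cells, Penk, Prss2, Adgrg1, Ikzf2, Pdcd1, Lag3, Tigit and Havcr2 were higher in the Trav12-2 pair than with another Trav. All 131 Penk UMIs were in its 71 cells (444 CPM, 372 to 527), in 33 of them, and the 27 Trbv5 cells with another Trav had 0, which at 3 counts allows up to 20.1 CPM. Prss2, a trypsinogen gene that lies among the segments of the Trb locus (chromosome 6, 41521787 to 41525079, between Trbv30 and Trbd1), had 57 UMIs (193 CPM) in the pair and 0 in the other 27. It was at 0 in all of the other pairs among the 12 pairs with at least 15 Gzmk cells. Prss2 was still found in other-segment Gzmk cells. Those with a Ccl3 UMI had 13 UMIs in 6 of 206 cells (10.4 CPM), and those without had 47 in 13 of 557 (14.5 CPM). Adgrg1, an adhesion G protein-coupled receptor gene, had 159 CPM in the pair, in 24 of 71 cells, and 13.4 in the other Trbv5 cells. Ikzf2 had 204 against 6.72 CPM, with 212 in the Trbv13-3 and Trav13-1 pair, and Havcr2 109 against 6.72. Among the 12 pairs, Trbv3 with Trav10n (15 cells) came next for Penk (39.4 CPM), Adgrg1 (65.7), Pdcd1 (171) and Lag3 (223). For Tox it was the highest, at 420 CPM against 397 in the Trbv5 and Trav12-2 pair. Next for Tigit was Trbv16 with Trav13-2 (317). Of 1179 genes with at least 50 UMIs over both Trbv5 sets, 49 (4.16%) were at least 2-fold higher in the Trav12-2 pair and 33 (2.8%) lower. This contrast was chosen after the data were seen.

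Pdcd1 stood at 438 CPM in the pair and 128 in the other Trbv5 cells, Lag3 at 794 and 141, and Tigit at 590 and 195. Ccl3 stood at 1042 and 1034 CPM, but 7 of the 27 other cells held its 154 UMIs there and 43 of 71 cells in the pair had some. The Trbv5 cell with most Ccl3 UMIs was not left out here, so the likeness of these levels can rest on a single cell. Among genes lower in the pair, Gzma, a granzyme gene, had 1 UMI in 71 cells (3.39 CPM) against 277 UMIs in 6 of the 27 other cells (1860 CPM). Il7r stood at 47.5 against 295 CPM. The higher Gzma of Trbv5 as a whole, at 610 CPM against 188, therefore lay in 6 cells outside the pair and 1 cell within it, and 44.2% of it lay in 1 cell. The 15 pair cells with fewer than 2 Gzmk UMIs had 6 Penk UMIs, 8 of Prss2 and 0 of Adgrg1.

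Trbv5 cells with Ccl3 had more Pdcd1 and Lag3 than those without, but 43 of the 51 cells with Ccl3 were of the Trav12-2 pair, so the split largely repeats that contrast. The 51 cells with a Ccl3 UMI had 501 CPM of Pdcd1, in 41 cells, and 901 of Lag3, and the 51 without had 158 of Pdcd1, in 21 cells, and 219 of Lag3. Penk stood at 440 and 136 CPM, and Tcf7 at 43.96 and 123. The median depths were 4012 and 3780 UMIs. Gzma had 1 UMI in the cells with Ccl3 and 277 in those without. In other-segment cells Pdcd1 likewise had 104 CPM with Ccl3 and 58.9 without, and Lag3 167 and 105. In Trbv13-2 cells Pdcd1 had 68.6 and 23.3 and Lag3 94.97 and 53.7, while in Trbv16 cells Pdcd1 had 46.9 and 40.3 and Lag3 23.4 and 65.1.

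The Trbv5 and Trav12-2 pair also carried transcripts of a gamma chain gene. Trgv2, a gamma chain V segment (chromosome 13, 19336573 to 19337167), had 435 UMIs in the pair, or 1476 CPM (1340 to 1621), in 68 of 71 cells (95.8%, 88.1 to 99.1). It was found in 6 of the 27 Trbv5 cells with another Trav and in 25 of 66 Gzmk cells with Trav12-2 and another Trbv. The Trbv13-2 and Trav12-1 pair had 0 UMIs in 69 cells, which at 3 counts allows up to 7.98 CPM. The highest level among the remaining pairs of at least 15 cells was 591 CPM (Trbv3 and Trav10n), and the median over the 12 was 54.3. The gamma constant genes Tcrg-C2 and Tcrg-C4 had 305 and 207 CPM in the pair. Of the gamma delta T cell markers, Trdc, Tcrg-C1, Sox13 and Cd163l1 were at 0 in all Trbv5 cells, and the list summed to 351 CPM in Trbv5 cells, against 57.9 in other-segment cells. The part of other cells in these reads was not tested.

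**Figure D4:**
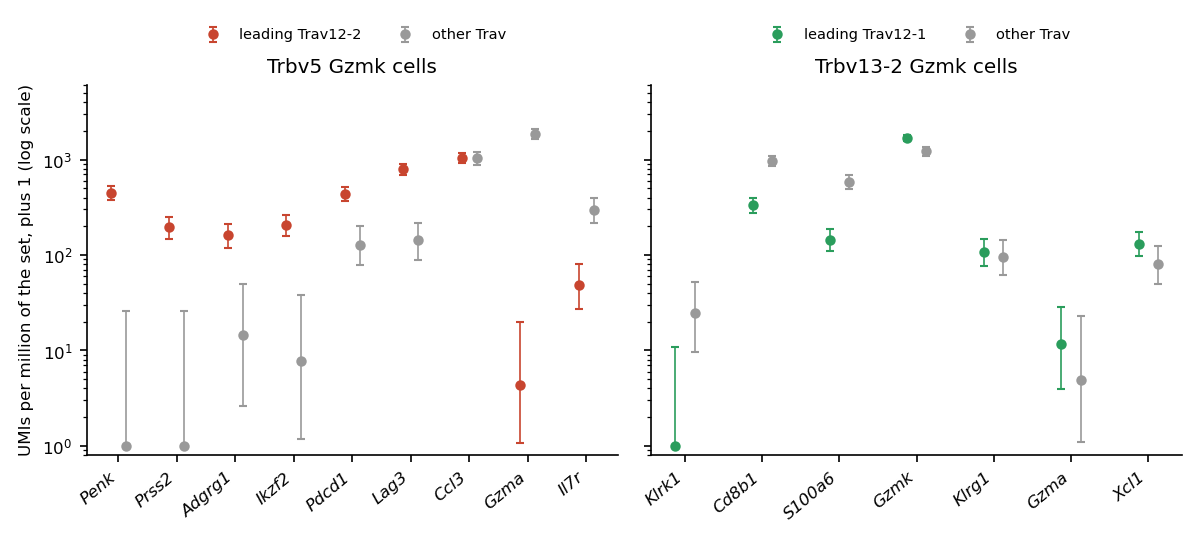
Levels (CPM plus 1, log scale, with exact Poisson 95% intervals) within Trbv5 Gzmk cells by leading Trav12-2 or another Trav (left) and within Trbv13-2 Gzmk cells by leading Trav12-1 or another Trav (right). Penk and Prss2 are at 0 in the 27 Trbv5 cells with another Trav, and Klrk1 is at 0 in the 69 Trbv13-2 cells with Trav12-1.

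Trbv13-2 cells were lower in a receptor gene and in a coreceptor gene. Klrk1 (chromosome 6, 129610323 to 129623864), which encodes the activating receptor NKG2D, had 8 UMIs in 132 Trbv13-2 cells, or 10.7 CPM (4.62 to 21.1), against 112 in other-segment cells. The 10 other segments ran from 23.5 CPM (Trbv17) to 311 (Trbv29), so Trbv13-2 was below all of them, and Trbv16 and Trbv5 stood at 151 and 191 CPM. Cd8b1 (chromosome 6, 71322788 to 71337494), the gene of the CD8 beta chain, had 586 CPM (532 to 643) against 1295, and 100 of 132 cells (75.8%) had a UMI against 89.8% of other-segment cells. After thinning to 1500 UMIs the Cd8b1 shares were 41.7% and 71.8%. Trbv13-3 was lower still, at 458 CPM. Of 6 NK receptor and adaptor genes, 3 were at least 2-fold lower and none higher, with a median log2 ratio of -1.13, against 1.77% of all genes higher and 5.38% lower. This direction depended on the UMI minimum, since over list members with at least 1 UMI the median was 0.0898. The 3 lower genes were Klrk1, Klrc1 (21.4 against 82.3 CPM) and Klre1 (21.4 against 68.3), and Hcst, which encodes the NKG2D adaptor, had 1229 against 1223.

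In Trbv13-2 cells the differences in Klrk1 and Cd8b1 were larger in the Trav12-1 pair. Klrk1 had 0 UMIs in its 69 cells, which at 3 counts allows up to 7.98 CPM, and 6 UMIs (23.8 CPM) in the 40 cells with another Trav. Low Klrk1 was not particular to this pair. The median over the 12 pairs was 16.9 CPM, the Trbv17 and Trav7-1 pair was also at 0, and the highest was 506 (Trbv12-2 and Trav13n-1). Cd8b1 stood at 333 CPM in the pair and 970 in the cells with another Trav, and Cd8a, the other CD8 chain gene, at 314 and 503. The lowest Cd8b1 of the 12 pairs was 316 CPM, in the Trbv13-3 and Trav13-1 pair. The 10 cells of the pair with fewer than 2 Gzmk UMIs had 1275 CPM of Cd8b1. S100a6, a calcium-binding protein gene, had 144 CPM in the pair, the lowest of the 12 pairs, and 578 in the other cells, with 362 in all Trbv13-2 cells against 1115 in other-segment cells. Among genes at a like level in both, Klrg1, an inhibitory receptor gene of effector cells, had 106 CPM in the pair and 95.0 in the other cells. Of 1559 genes, 12 (0.77%) were at least 2-fold higher in the pair and 9 (0.577%) lower.

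The 10 donor Trbv13-2 Gzmk cells had 30 Klrk1 UMIs, or 651 CPM (439 to 929), in 8 cells. Donor Gzmk cells of other segments had 107 CPM of Klrk1, in 274 of 1244 cells.

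Gzmk itself was highest of the 13 segments in Trbv13-2 cells, at 1472 CPM against 1095 in other-segment cells, though the members were chosen by it. Trbv13-2 cells had 13 Gzma UMIs, 8 of them in 1 cell, or 17.4 CPM against 188, and the log2 ratio of -3.43 was -1.43 with a minimum of 1 Gzmk UMI and -4.78 at no more than 5% mitochondrial UMIs. They were also low in Lgals3, the gene of galectin-3, at 16.0 against 101, in Itgb1, an integrin chain gene, at 89.6 against 202, in Ly6a, at 89.6 against 183, and in Pdcd1, at 34.8 against 71.4. The 8 genes at the other end of the ranking were under 2-fold higher, from Xcl1 (1.65-fold) and Nab1 (118 against 73.9 CPM) through Tle3, Clec2i, Ptpn7, Gpr183 and Hspd1 to Klrg1 (106 against 74.6). For Xcl1, 68 of the 137 UMIs lay in 4 cells with no Trav call, and 32.8% lay in 1 cell.

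Trbv16 cells, the most numerous, showed no gene of at least 100 CPM in the rule's 8 highest that was as much as 2-fold higher. Chd3, a chromatin remodeller gene, led with 183 CPM against 121, followed by Gpr183, the gene of an oxysterol receptor, with 144 against 97.5, and then by Crtam, Klrk1, Klf6, Ehd3, Tgfb1 and Srsf10 (114 against 85.9). The lower genes were Gzma with 5.09 CPM against 188, Gzmb with 39.7 against 130, Lgals3 with 36.7 against 101, Ccl3 with 56.0 against 131, Lag3 with 56.0 against 122, Hmgn2 with 104 against 206 and Ccl4 with 215 against 382. Penk was at 4.08 CPM, in 3 of 176 cells. Of 18 cell cycle genes, 12 were at least 2-fold lower and none higher, with a median log2 ratio of -1.49, beside 5.26% lower and 1% higher among 9055 genes. Top2a, a topoisomerase gene of dividing cells, had 16.3 CPM against 52.3, and Birc5 and Ccnb2 had 0 UMIs against 43.6 and 21.4 CPM. Transcripts of dividing cells were uneven among Gzmk cells. Over the 12 pairs, Ube2c was at 0 in 8, and Hist1h2ap had a median of 105 CPM and a highest level of 2926 (Trbv17 and Trav13-4-dv7). Low levels were thus not shown to be particular to Trbv16. Tcf7, Eomes and Tox stood at 218, 271 and 191 CPM, against 181, 243 and 182 in other-segment cells.

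Within Trbv16 the most common pair was set beside the rest. The 22 Trav7-5 cells and the 102 cells with another Trav had 1020 and 970 CPM of Gzmk, 33.99 and 44.5 of Pdcd1, and 195 and 221 of Tcf7. S100a6 stood at 170 CPM (104 to 262) in 6 of the 22 Trav7-5 cells against 821 (749 to 898) in 81 of the 102 others. Among the 12 pairs the Trav7-5 pair had the highest Chd3 (221 CPM), Klf6 (178) and Tgfb1 (178), and the lowest Ehd3 (59.5) and Hmgn2 (67.98). This split was chosen after the data were seen.

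The segments were also set against each other. Of 4685 genes with at least 50 UMIs over both sides, 112 (2.39%) were at least 2-fold higher in Trbv5 cells than in the other 2 segments and 92 (1.96%) lower. For Trbv16 these were 16 (0.342%) and 56 (1.2%), and for Trbv13-2 14 (0.299%) and 63 (1.34%). At 20 UMIs the shares of 7322 genes were 4.66% and 5.01% for Trbv5, 1.31% and 2.92% for Trbv16, and 1.43% and 3.44% for Trbv13-2, again with the fewest UMIs in Trbv5. Penk stood at 287 CPM in Trbv5 cells against 7.52 in the other 2, and Gpr183 at 21.9 against 142. Ube2c, a ubiquitin-conjugating enzyme gene of dividing cells, had 116 against 1.16 CPM, and all 53 of its UMIs in Trbv5 cells lay in 1 cell, with another Trav than Trav12-2. Il7r stood at 337 CPM in Trbv16 cells against 202 in the other 2, and Slamf6, which encodes a SLAM family receptor, at 142 in Trbv13-2 cells against 79.3.

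The summed level of the histone gene Hist1h2ap was lower in all 3 sets, at 88.6 (Trbv16), 122 (Trbv13-2) and 151 CPM (Trbv5) against 729 CPM in other-segment cells. The share of cells with it was not. After thinning to 1500 UMIs it was 11.4%, 9.85% and 15.8% in the same order, against 10.0% of other-segment cells. With the mean of each cell's CPM the log2 ratio went from -3.04 to -1.56 for Trbv16. It went from -2.58 to -2.18 for Trbv13-2 and from -2.27 to -1.14 for Trbv5. The reference was uneven between segments. The 10 other segments ran from 44.6 CPM (Trbv3) to 3538 (Trbv12-1) with a median of 382, so the 3 sets lay inside their range and below its median. Gzma was likewise uneven, from 2.79 CPM (Trbv3) to 1612 (Trbv29). Taken as 1 set of 410 cells, the members differed from other-segment cells by at least 2-fold in 25 higher (0.323%) and 78 lower (1.01%) of 7735 genes, and at 20 UMIs the shares were 0.977% and 2.48% of 9311. Ccl4, at 787 against 382 CPM, and Ccl3, at 265 against 131, led the higher ones, although Trbv16 and Trbv13-2 cells were below the reference for both.

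**Figure D5:**
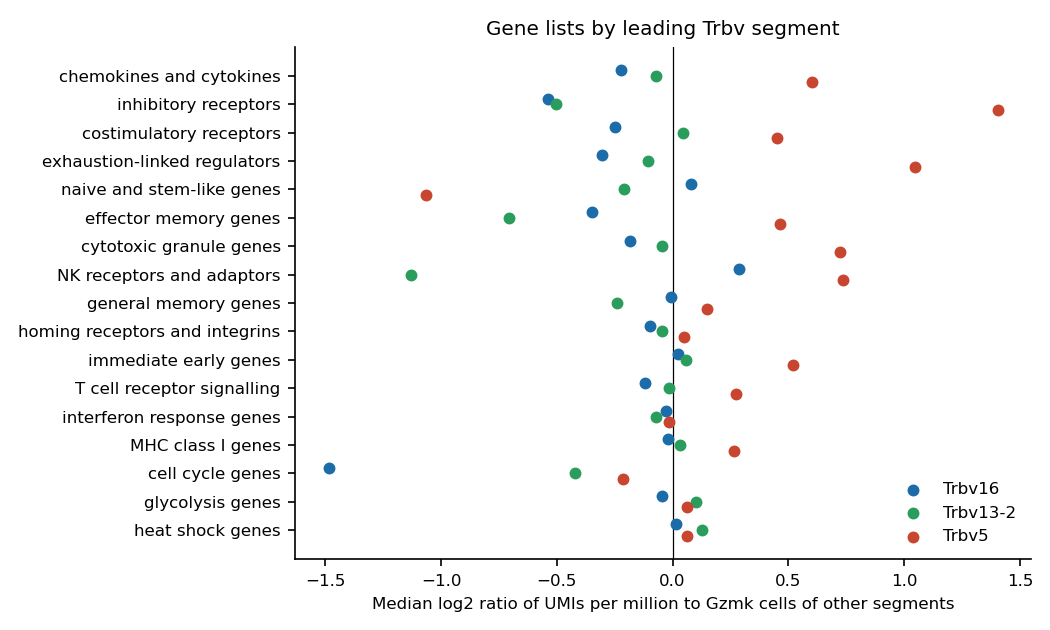
Median log2 ratio of CPM in each of 17 gene lists for Trbv16, Trbv13-2 and Trbv5 Gzmk cells against Gzmk cells of other segments. Trbv5 stands highest for inhibitory receptors (1.40) and lowest for naive and stem-like genes (-1.06), and Trbv16 lowest for cell cycle genes (-1.49).

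The 21 donor Gzmk cells with these segments gave little to set beside these values. Penk, Prss2 and Adgrg1 were at 0 in them, which at 3 counts allows up to 20.3 CPM each, and Pdcd1 had 33.8 CPM (10.96 to 78.8), Ccl3 40.5 CPM and Klrk1 284 CPM. In the 1244 other donor Gzmk cells, Penk had 4.00 CPM, Pdcd1 72.1 and Ccl3 85.3.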

How the data were processed

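The authors deposited whole UMI counts for 2 libraries of sorted CD8 T cells, 1 per group, and these were taken without change. Cell Ranger and Seurat were named in the submitters' processing notes with the mm10 build, and the file headers give software version 3.0.2. The recipient library held 41504941 UMIs and the donor library 65006187.

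Members, segments and the 25 gene lists were chosen with earlier results of these data known. Levels are summed UMIs per 1000000 with exact Poisson intervals, and shares have exact binomial (Clopper-Pearson) intervals. A gene with 0 UMIs was set at 3 counts in ratios. Called means at least 2-fold among genes with at least 50 UMIs over both sets (20 for lists). Genes to be named were 8 at each end of the ratios against other segments, where one set reached 100 CPM, ranked after adding 5 CPM, without receptor, ribosomal, mitochondrial and unnamed genes, plus 15 always named. Between segments 5 each way were ranked, of which some are named. In pair contrasts calls used 50 UMIs and the naming of genes 30, and pairs and the 10-segment range were chosen after the data were seen. Naive cells had no Gzmk or Ccl5 UMI and at least 1 UMI of Ccr7 and of Lef1. Doublets were not removed in the main analysis. Sequences and coordinates are from GENCODE M21. Scripts used Python 3.11.15, R 4.3.3 and edgeR 4.0.16 (TMM factors only), and were tested on simulated data.
With 1 library per group no test was made. Alternatives changed the Gzmk, gene and mitochondrial limits, the leading Trbv minimum, second-Trbv cells, doublets, scaling, cell weights, single highest cells, the most common Trav and the UMI minimums.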

Additional observations from a re-analysis of the deposited data

How the results depend on the processing

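No paired analysis was possible because each group had 1 library. Alternatives gave the following numbers of genes at least 2-fold higher or lower. At 20 UMIs over both sets, Trbv16 had 91 higher and 476 lower, Trbv13-2 159 and 485, Trbv5 423 and 603, and the 3 together 91 and 231. At 100 UMIs these were 6 and 72, 7 and 81, 69 and 130, and 13 and 33. Without the most common Trav of each segment, Trbv13-2 had 79 and 412 and Trbv5 345 and 639, from fewer cells (63 and 31). Without cells with 2 UMIs of a second Trbv, Trbv5 had 111 higher and 199 lower. With totals that left out ribosomal, mitochondrial and receptor genes, Trbv5 had 114 higher and the 3 together 16 higher and 48 lower. TMM scaling gave 117 higher for Trbv5. The mean of each cell's CPM gave 59 higher for Trbv13-2 and 40 for the 3 together. The cause of these changes was not tested, and in some settings fewer cells or genes entered. Leaving out the Trav12-2 pair turned the sign of these Trbv5 log2 ratios past 2-fold. Penk went to -1.16 (an upper limit, at 3 counts), and both Tigit and the inhibitory receptor median to -0.012. Ikzf2 went to -2.95, with 1 UMI in the 27 Trbv5 cells with another Trav. Of smaller ratios, leaving out the pair turned Tox (0.68 to -0.87), Eomes (0.15 to -0.34) and Gzmk (0.29 to -0.19). It also turned the interferon response median (-0.017 to 0.43) and the cell cycle median (-0.21 to 0.45). The NK receptor median of Trbv13-2 went from -1.13 to 0.0898 with members of at least 1 UMI. Lag3 of Trbv5 went from 2.19 to 0.09 and Pdcd1 from 2.20 to 0.87 without the pair. Settings chosen after the data were seen were equal weight of the other segments, which gave 3.43 for Penk in Trbv5, and leaving out barcodes shared by the libraries, which moved no count of calls by over 1.5 times. Depth limits the Trbv5 set most, where 1 UMI was 2.19 CPM.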
